A study of Homo sapiens with 6 samples.

Results

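Mitochondrial ribosomal protein genes are nuclear genes whose products are imported into mitochondria, where they build the mitoribosome with rRNAs made from mitochondrial DNA. The large subunit forms peptide bonds and holds the exit tunnel, the small subunit decodes the mRNA, and the mitoribosome translates the few respiratory chain proteins that mitochondrial DNA encodes. Many of its proteins descend from bacterial ribosomal proteins, and others are found only in mitochondria. The genes were chosen as protein-coding GENCODE 29 genes whose symbols begin with MRPL or MRPS and a number and whose mean level over all 6 samples was at least 1 FPKM (fragments scaled to exon length and by a factor for each sample). Of 78 genes with such symbols 77 met the rule, 49 of the large subunit (MRPL) and 28 of the small subunit (MRPS), among 58302 genes listed and 14462 with a mean of at least 1 FPKM.

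The samples were cultures of SK-N-BE(2), a human neuroblastoma cell line with amplified MYCN, grown in medium with serum. In 3 samples, called siNC here and NC in the labels, the cells received a control siRNA, and in 3 an siRNA against Prp19 (gene PRPF19), a ubiquitin ligase of the spliceosome, with replicates 1, 2 and 3 in each group. The labels give 72 h of transfection, while the methods of the study name a shorter time. The methods call the replicates biological, and what a replicate number stands for (a day, a passage) is not given in the sources used here.

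The reads on genes that could be recovered from the FPKM values ranged from 19058784 to 24181789 per sample. PRPF19 was at 53.1, 53.1 and 64.9 FPKM with siNC and at 21.8, 28.5 and 33.6 FPKM with siPrp19, which left 49.0% of the siNC mean, with groups that did not overlap (exact two-sided permutation test, p = 0.10, the smallest that 3 against 3 samples allow). Each of the 10 adrenergic neuroblastoma markers averaged 10 FPKM or more, and their summed level ran from 2104.5 to 2268 FPKM with siNC and from 2044 to 2580 FPKM with siPrp19. Of 5 fibroblast and mesenchymal markers 4 reached a mean of 1 FPKM (summed level 120.0 to 141 FPKM with siNC and 110.5 to 136 FPKM with siPrp19), as did 1 of 4 epithelial markers (EPCAM at 1.86 FPKM) and none of 3 leukocyte and 3 endothelial markers, with KRT5 and CD3E at 0 in all samples. In the summed levels given next, both replicate 3 samples stood apart from the other 4. The 13 protein-coding genes of mitochondrial DNA summed to 19379 to 21972 FPKM in replicates 1 and 2 and to 45384 and 47754 FPKM in replicate 3, and the cytosolic ribosomal protein genes to 26997 to 30697 FPKM in replicates 1 and 2 and to 20503 and 21316 FPKM in replicate 3. In bulk RNA, fewer cells of a kind and less RNA per cell cannot be told apart.

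Promoter sequence is shown because the genes had to be compared for what they share beyond their symbols, and because nuclear genes for mitochondrial proteins are known targets of the transcription factors NRF1, of the ETS family (GABP) and YY1. RefSeq promoters (assembly GRCh38.p14, 250 bases before to 50 after the gene start) matched 68 of the 77 genes by symbol and were searched on both strands for CCGGAAGT (an ETS word), AAGATGGCG (a YY1 word) and CGCATGCG (the core of the NRF1 motif, its own reverse complement). The ETS word stood in 11 of the 68 promoters (16.2%), against 4.44% of all 27305 promoters and 9.39% of those of 9003 tested protein-coding genes. The YY1 word stood in 12 (17.6%), against 1.85% and 4.23%, and the NRF1 word in 3 (4.41%), against 2.19% and 4.05%. A match is a description of letters, not a binding site. Windows of at most 30 bases are printed for genes whose levels or differences are described further on. MRPL46, also described there, has a YY1 word at position 8 that is not printed. The windows run 5′ to 3′ on the strand of the gene, with the matched word in capitals (the reverse complement where the word lies on the other strand). Positions count from 0 at the first base of the gene in RefSeq, negative before it. None of the printed words overlaps another.
MRPS34 (ETS, other strand, position -20, chr16:1773137-1773164, minus strand): tcttccggtgACTTCCGGccggaccgct
MRPL51 (ETS, other strand, position -120, chr12:6493365-6493392, minus strand): gcgctccaaaACTTCCGGcaggcggacc
MRPL53 (ETS, position -72, chr2:74472735-74472762, minus strand): cagccggcggCCGGAAGTctatcccgca
MRPL38 (ETS, other strand, position -209, chr17:75905076-75905103, minus strand): tccaacgggcACTTCCGGagccgggcgt
MRPL38 (YY1, position 6, chr17:75904860-75904888, minus strand): ggccggagggAAGATGGCGgcgccctggt
MRPS10 (YY1, position 9, chr6:42217834-42217862, minus strand): cgggaccggcAAGATGGCGgcgcggacag
MRPS30 (YY1, position 13, chr5:44808950-44808978, plus strand): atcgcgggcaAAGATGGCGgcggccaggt
MRPS18A (YY1, position 9, chr6:43687764-43687792, minus strand): taggtttttgAAGATGGCGgccctcaagg
MRPS18B (YY1, position 23, chr6:30617853-30617881, plus strand): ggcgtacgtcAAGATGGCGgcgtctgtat
MRPS18C (NRF1, position -135, chr4:83455913-83455940, plus strand): aaaggtgctgCGCATGCGtattgaaaaa
MRPL17 (NRF1, position -80, chr11:6683403-6683430, minus strand): ggctctgatgCGCATGCGcaaacacgtt
MRPL17 (NRF1, position -42, chr11:6683365-6683392, minus strand): cgagctaaggCGCATGCGttccctgaaa
The YY1 words printed for MRPL38, MRPS10, MRPS30, MRPS18A and MRPS18B begin at or after the RefSeq gene start, and the ETS and NRF1 words lie before it. The GENCODE starts can differ: MRPL51 begins at chr12:6493841 and MRPL17 at chr11:6683401. The MRPL51 window and the MRPL17 window at position -42 thus lie inside the GENCODE genes. The genes with an ETS or a YY1 word include members at both ends of the range of levels, from MRPL51 and MRPS34 down to MRPL38.

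The 77 genes were expressed in every sample, at a median of 14.6 FPKM (means of single genes 1.37 to 84.6 FPKM), against a median of 5.76 FPKM over all tested genes, and 68 of them lay above that median. By the mean of 6 samples, 23 genes were under 10 FPKM, 50 at 10 to 50 FPKM and 4 at 50 FPKM or more. The 46 genes with a bacterial homolog had a median of 15.5 FPKM and the 29 found only in mitochondria one of 12.996 FPKM. They lie on 21 chromosomes, with 8 each on chromosomes 1, 2 and 17. Across the 77 genes the level ranked lower the longer the exons (Spearman's rho -0.57) and the more of them another gene overlapped (rho -0.28), points that share the same libraries and the same division by exon length.

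In the large subunit the highest level was that of MRPL14, the homolog of bacterial L14 at the interface between the subunits, with 78.6, 98.9 and 75.8 FPKM in siNC replicates 1 to 3 and 82.3, 94.8 and 77.04 FPKM in siPrp19 replicates 1 to 3 (chr6:44113454-44127457, minus strand, hg38). MRPL51, a protein found only in mitochondria, followed at 68.2, 78.9 and 78.2 FPKM with siNC and 60.2, 76.5 and 78.0 FPKM with siPrp19. MRPL14 and MRPL51 differed by less than their ranges over samples, which overlapped. MRPL37, also found only in mitochondria, was next at 49.4 ± 3.42 FPKM (SD, n = 6), and its highest sample lay below the lowest of MRPL51. At the other end stood MRPL53 at 2.72 ± 0.674 FPKM, MRPL46 at 2.28 ± 0.189 FPKM and MRPL38 at 1.37 ± 0.155 FPKM (SD, n = 6), of which the last did not reach the lowest sample of either of the others. MRPL53 rested on 51 to 99 reads per sample and shared 45.2% of its exon bases with CCDC142, and MRPL38 shared 41.1% with annotated neighbours.

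In the small subunit MRPS34, a protein found only in mitochondria whose mutation causes Leigh syndrome, was highest, at 75.1, 68.5 and 98.4 FPKM with siNC and 78.6, 70.2 and 106 FPKM with siPrp19 (chr16:1771890-1773155, minus strand, hg38). The GENCODE start of the gene lies inside the window printed for it. MRPS21, the homolog of bacterial S21, had 65.9 ± 7.13 FPKM and MRPS35 35.4 ± 4.44 FPKM (SD, n = 6). The samples of MRPS34 and MRPS21 overlapped, and those of MRPS35 lay below both. The lowest were MRPS11 (3.57 ± 0.983 FPKM), MRPS18C (3.42 ± 0.891 FPKM) and MRPS17 (2.42 ± 0.215 FPKM), homologs of bacterial S11, S18 and S17, and MRPS11 and MRPS18C did not differ beyond their spread. The mammalian mitoribosome has 3 proteins related to bacterial S18, and their genes were far apart in level: MRPS18B had 31.8 FPKM, MRPS18A 14.6 FPKM and MRPS18C 3.42 FPKM, with no overlap between their samples. MRPS18C shares 40.2% of its exon bases with ABRAXAS1 and MRPS18A 47.04% with RSPH9, and the library kit does not mark strand.

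MRPS24 is the gene that missed the rule. It lay at 0.278 FPKM, on 12 to 20 reads per sample, against 1.37 FPKM for MRPL38, the nearest gene inside the rule. It shares 23.2% of its exon bases with the readthrough gene URGCP-MRPS24, which was listed at 0 in all samples. MRPL12 shares 68.2% with AC139530.2, also listed at 0 in all samples, and 37 of the 77 genes share no exon base with another gene. Whether reads on shared exon bases were counted for either gene was not tested. The levels of MRPS24 and of members with such overlap, and their ranks, may therefore be too low. Of 75 pseudogenes named after these genes 1 had a mean of at least 1 FPKM, MRPL45P2 at 4.24 FPKM. How far reads that match both a gene and a pseudogene affect the level of MRPL45 or of other members was not tested.

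The median large subunit gene was higher than the median small subunit gene in every sample. The median was 15.5, 16.9 and 16.9 FPKM for the large and 12.2, 11.5 and 13.9 FPKM for the small subunit in siNC replicates 1 to 3, and 15.2, 17.01 and 16.8 FPKM against 11.6, 12.4 and 12.7 FPKM in siPrp19 replicates 1 to 3. The ratio of the medians was 1.32 ± 0.135 with siNC and 1.33 ± 0.0280 with siPrp19 (SD, n = 3 each), which differed by less than the spread between replicates. The ratio of the summed levels was 2.21 ± 0.134 with siNC and 2.17 ± 0.0818 with siPrp19, a value that also carries the larger number of large subunit genes. The symbols do not always give the place in the ribosome: MRPS30 and MRPS18A sit in the large subunit in structures, and MRPS36 is now known as a subunit of a dehydrogenase complex. Together the 77 genes summed to 1470.5, 1538 and 1615 FPKM with siNC and to 1472, 1539 and 1672 FPKM with siPrp19, so the replicates differed more than the groups.

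**Figure D1:**
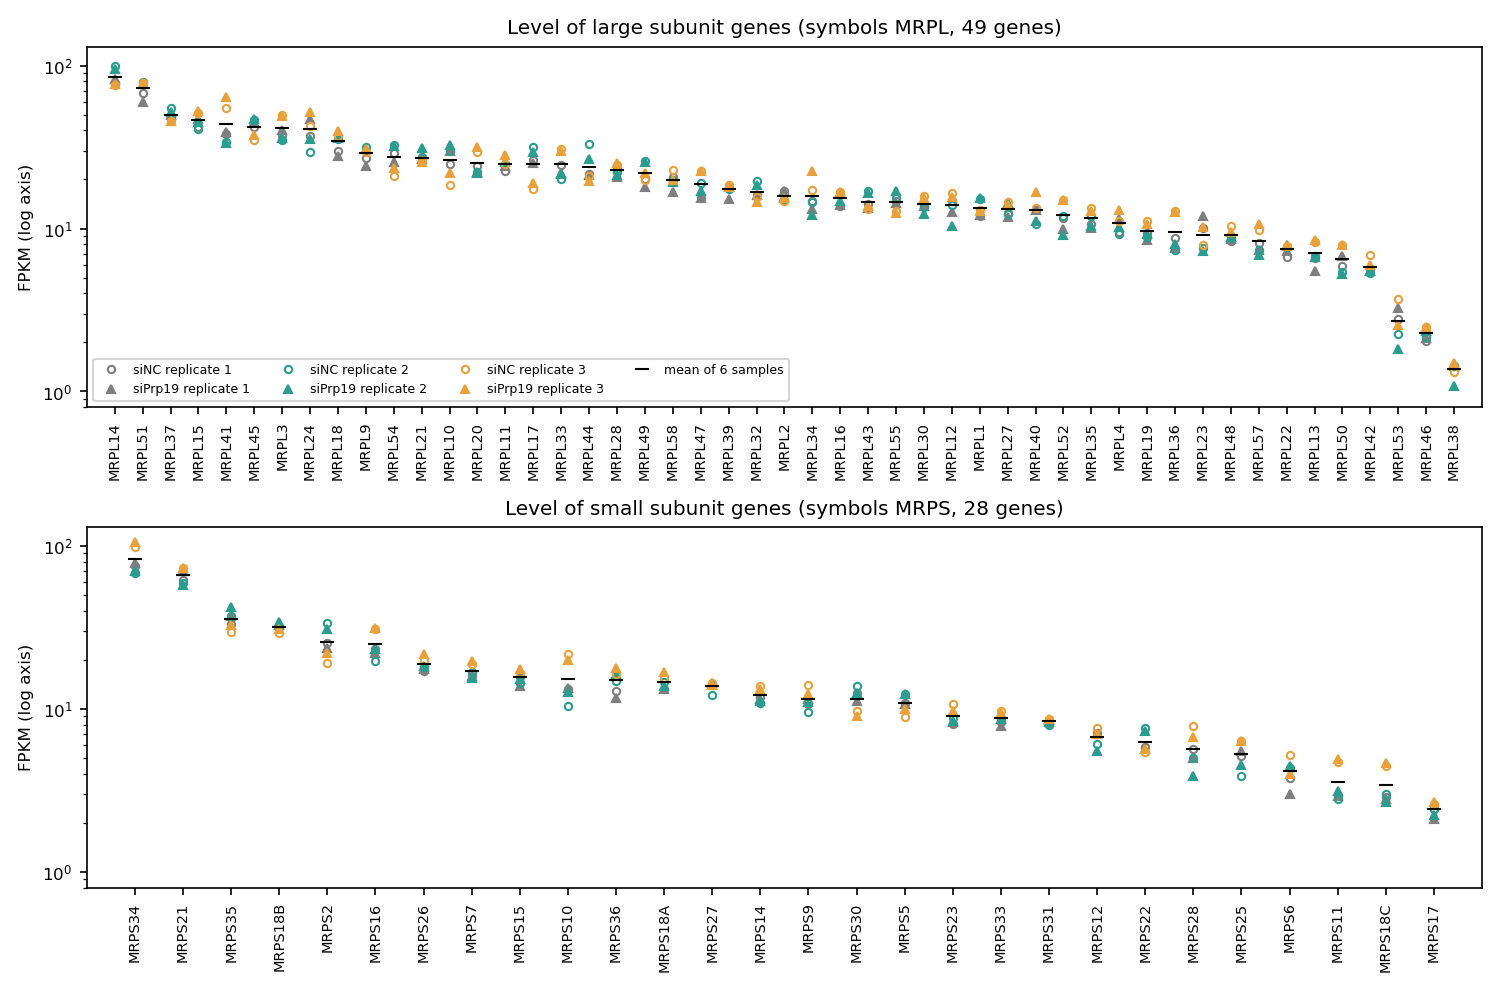
FPKM on a log axis for each of the 49 large subunit genes (top) and 28 small subunit genes (bottom), ordered by the mean of 6 samples (black dash), with open circles for siNC, triangles for siPrp19 and one colour per replicate number. The levels run from 84.6 FPKM (MRPL14) to 1.37 FPKM (MRPL38), and for many genes the orange points of replicate 3 lie together, apart from the rest.

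Replicate numbers were compared because each holds 1 siNC and 1 siPrp19 sample, with a limma F test over the numbers beside a term for the group, on log2(FPKM + 0.1), with Benjamini-Hochberg adjustment over all tested genes. At an FDR under 0.05, 52 of the 77 genes differed between replicate numbers (33 of 49 large and 19 of 28 small), which is 67.5%, against 49.6% of all tested genes. Among genes averaging at least 5 FPKM it was 55 of 70 members against 5620 of all 7913 genes, a smaller gap. Both replicate 3 samples were above the other 4 in 41 genes (53.2%, against 25.1% of all tested genes) and below them in 16 (20.8%, against 23%). Replicate 1 held the 2 highest samples in 1 gene (7.99% of all tested genes) and the 2 lowest in 17 (11.3%), and replicate 2 the 2 highest in 18 (24.3%) and the 2 lowest in 17 (20.3%). Against replicate 2, replicate 3 was higher in 31 genes (40.3%, against 22.9%) and lower in 17 (22.1%, against 24.5%). Against replicate 1 it was higher in 27 (35.1%, against 15.8%) and lower in 4 (5.19%, against 14%). Replicate 2 was higher than replicate 1 in 10 genes (12.99%, against 12.4%) and lower in 2 (2.60%, against 7.44%). The share of genes higher in replicate 3 thus lay above that of all tested genes against both other numbers, while the share higher in replicate 2 than in replicate 1 was near it. The count of 52 fell to 37 without siNC replicate 1, 24 without siNC replicate 2, 32 without siNC replicate 3, 28 without siPrp19 replicate 1, 22 without siPrp19 replicate 2 and 32 without siPrp19 replicate 3. Over all tested genes 7175 fell to 5563, 4395, 5122, 5076, 4123 and 5224, in the same order. Without siNC replicate 2, siPrp19 replicate 1 or siPrp19 replicate 2 the share of the 77 was thus near that of all tested genes. For the comparisons of single numbers that follow, counts over all tested genes without these samples are not given. Their falls can therefore not be read as particular to the 77 genes. The 31 genes higher in replicate 3 than in replicate 2 were 14 without siPrp19 replicate 2, 19 without siPrp19 replicate 3 and 20 without siNC replicate 3, and the 17 lower ones were 7 without siNC replicate 2 and 9 without siPrp19 replicate 2. The 27 genes higher in replicate 3 than in replicate 1 were 1 without siPrp19 replicate 1, 6 without siPrp19 replicate 3, 8 without siNC replicate 1 and 10 without siNC replicate 3. The 4 lower ones were 0 without siPrp19 replicate 1, 1 without siNC replicate 1 and 2 without siNC replicate 3. Between replicates 1 and 2, leaving out any 1 of the 4 samples with those numbers left 0 genes in both directions.

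Both subunits shared the direction. The median log2 difference of replicate 3 from replicate 1 was 0.20 for the large and 0.24 for the small subunit, and that from replicate 2 was 0.16 and 0.20, against 0.02 and 0.00 over all tested genes, and these medians stayed above 0 under each scaling tried. Between replicates 2 and 1 the medians were 0.10 and 0.02, which turned to 0.00 and -0.08 when FPKM was rescaled to TPM and to -0.02 and -0.06 after quantile normalization. TPM moved the median of all tested genes in that comparison from 0.02 to -0.08. Among genes with a bacterial homolog 23 of 46 (50%) were higher and 7 (15.2%) lower in replicate 3 than in replicate 2, and among those found only in mitochondria 8 (27.6%) and 9 (31.0%) of 29, against 22.9% and 24.5% of all tested genes. A difference between the 2 classes was not tested. The cytosolic ribosomal protein genes, the group most like these, moved the other way: of 83 tested, 75 were lower and 2 higher in replicate 3 than in replicate 2, with a median log2 difference of -0.52. All 13 genes of mitochondrial DNA were higher in replicate 3, with medians of 1.34 against replicate 1 and 1.14 against replicate 2. The part of these whole-sample differences in the values of the mitochondrial ribosomal protein genes was not tested.

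**Figure D2:**
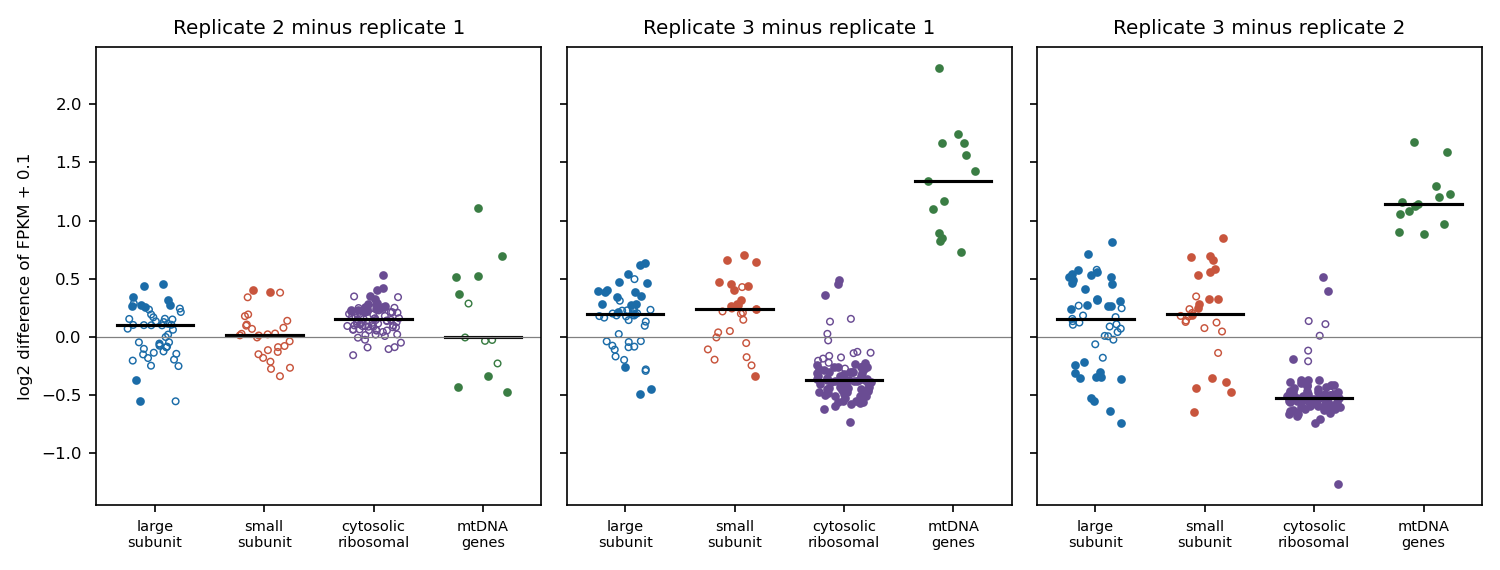
Log2 difference of FPKM + 0.1 between replicate numbers for 49 large subunit genes, 28 small subunit genes, 83 cytosolic ribosomal protein genes and 13 genes of mitochondrial DNA; each point is 1 gene, filled where limma's FDR is under 0.05, and the black lines are medians. In replicate 3 against replicate 2 the medians are 0.16 and 0.20 for the large and small subunit, -0.52 for cytosolic ribosomal proteins and 1.14 for mitochondrial DNA.

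The genes with the largest F statistics went both ways. MRPS34 had its 2 highest samples, 98.4 and 106 FPKM, in replicate 3, and was 1.47-fold higher there than in replicate 2 (log2 difference 0.56 ± 0.05 SE, limma adjusted p = 0.0018). MRPL41, a large subunit protein found only in mitochondria, was at 38.1, 33.8 and 54.9 FPKM in siNC replicates 1 to 3 and 39.2, 33.3 and 64.2 FPKM in siPrp19 replicates 1 to 3. Its replicate 3 samples were the highest in both groups, 1.77-fold above replicate 2 (0.82 ± 0.08 SE, adjusted p = 0.0020). MRPS10, the homolog of bacterial S10, which has the YY1 word shown for it, was at 13.3, 10.4 and 21.8 FPKM with siNC and 13.3, 12.7 and 20.0 FPKM with siPrp19. Replicate 3 was again highest in both groups, and the 1.81-fold excess over replicate 2 (0.85 ± 0.11 SE, adjusted p = 0.0040) was the largest of the 77. MRPS11, the homolog of bacterial S11, had 2.93, 2.79 and 4.71 FPKM with siNC and 2.92, 3.13 and 4.94 FPKM with siPrp19. Its replicates 1 and 2 lay close together and replicate 3 was 1.61-fold above replicate 2 (0.69 ± 0.09 SE, adjusted p = 0.0047). MRPS28 stood at 5.68, 5.03 and 7.82 FPKM with siNC and 5.01, 3.89 and 6.72 FPKM with siPrp19, with replicate 3 1.62-fold above replicate 2 (adjusted p = 0.0033), and it shares 35.8% of its exon bases with AC036214.3.

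MRPL10 and MRPL17 were lower in replicate 3. MRPL10, the homolog of bacterial L10, which anchors the stalk protein MRPL12, was at 25.1, 29.9 and 18.5 FPKM with siNC and 29.7, 32.6 and 21.8 FPKM with siPrp19. Replicate 3 was lowest in both groups, at 0.643 of replicate 2 (log2 difference -0.64 ± 0.06 SE, adjusted p = 0.0021). MRPL17, a homolog of bacterial L17 with the NRF1 word at both positions shown, was at 26.4, 31.5 and 17.5 FPKM with siNC and 25.2, 29.6 and 19.1 FPKM with siPrp19. Its replicate 3 level was 0.600 of replicate 2 (-0.74 ± 0.08 SE, adjusted p = 0.0024), the largest difference downwards among the 77. MRPL24, the homolog of bacterial L24, was lowest in replicate 2 of both groups, at 37.2, 29.5 and 42.8 FPKM with siNC and 46.7, 35.4 and 51.9 FPKM with siPrp19. Its replicate 3 minus replicate 2 difference was 0.54 ± 0.05 (SE, adjusted p = 0.0021), while replicates 3 and 1 did not pass the test (adjusted p = 0.061). The smallest F statistics were those of MRPL38 and MRPL39 in the large and of MRPS31 and MRPS27, a pentatricopeptide repeat protein, in the small subunit. MRPS31 ran only from 8.02 to 8.62 FPKM over all 6 samples, and MRPL39 from 15.2 to 18.6 FPKM. Of the paralogs, MRPS18C was 1.58-fold higher in replicate 3 than in replicate 2 (adjusted p = 0.0062), MRPS18B was at 0.910 of it (adjusted p = 0.088) and MRPS18A at 1.13-fold (adjusted p = 0.11); whether the paralogs differ from each other was not tested.

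**Figure D3:**
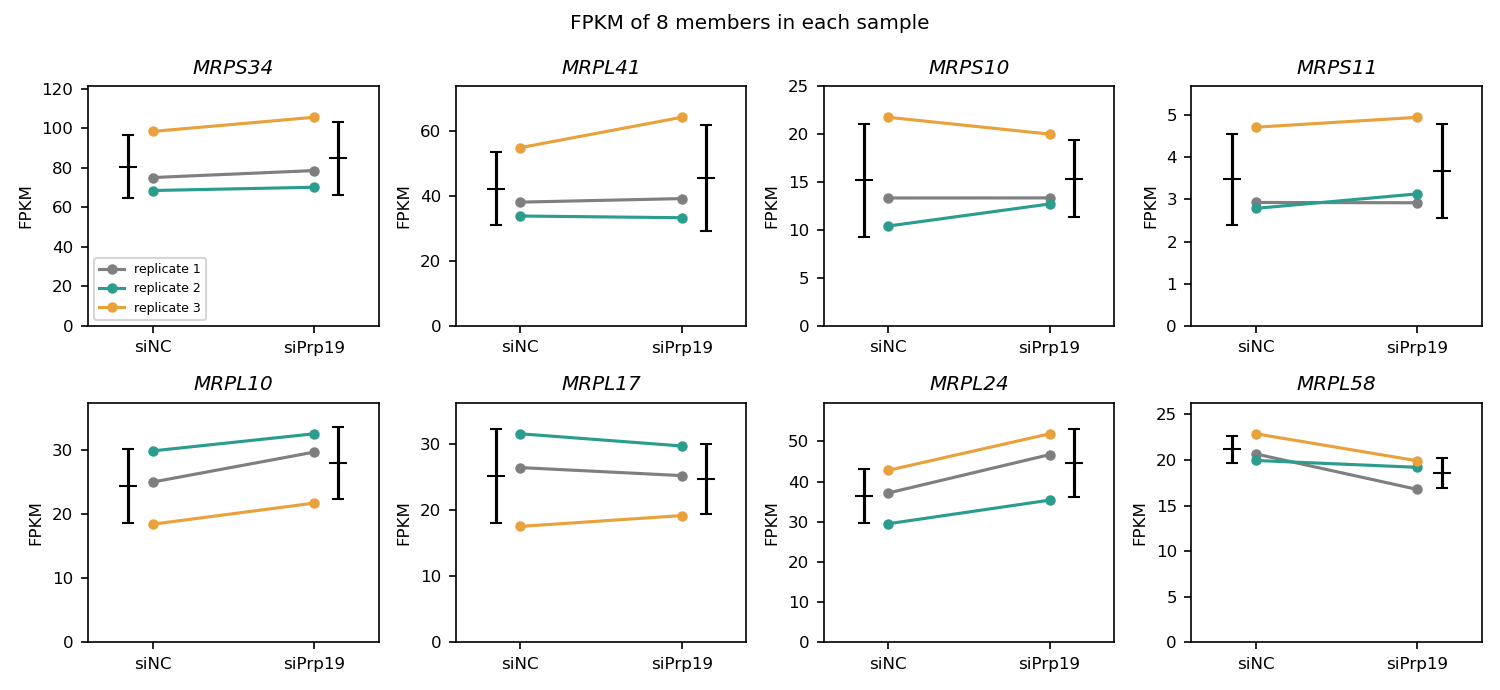
FPKM of MRPS34, MRPL41, MRPS10, MRPS11, MRPL10, MRPL17, MRPL24 and MRPL58 in each sample; lines join the siNC and siPrp19 samples of the same replicate number, and the black marks are the mean and SD of each group (n = 3). Replicate 3 is the highest line for the first 4 genes and the lowest for MRPL10 and MRPL17, and the lines are nearly parallel for MRPL24.

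The replicate differences were then compared between the groups, which share no samples. The difference of replicate 3 from replicate 2 had the same sign with siNC and with siPrp19 in 70 of the 77 genes (90.9%, against 83.1% of all tested genes), with Pearson's r 0.87 across genes. For replicate 3 against replicate 1 the sign was shared by 71 (92.2%, against 77.9%; r 0.80), and for replicate 2 against replicate 1 by 63 (81.8%, against 78.5%; r 0.74). Genes of the same libraries are not independent of each other, so these values describe the samples and carry no p. The same holds for the subunits taken alone, where the replicate 3 minus replicate 2 difference had r 0.87 in the large and 0.89 in the small subunit.

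**Figure D4:**
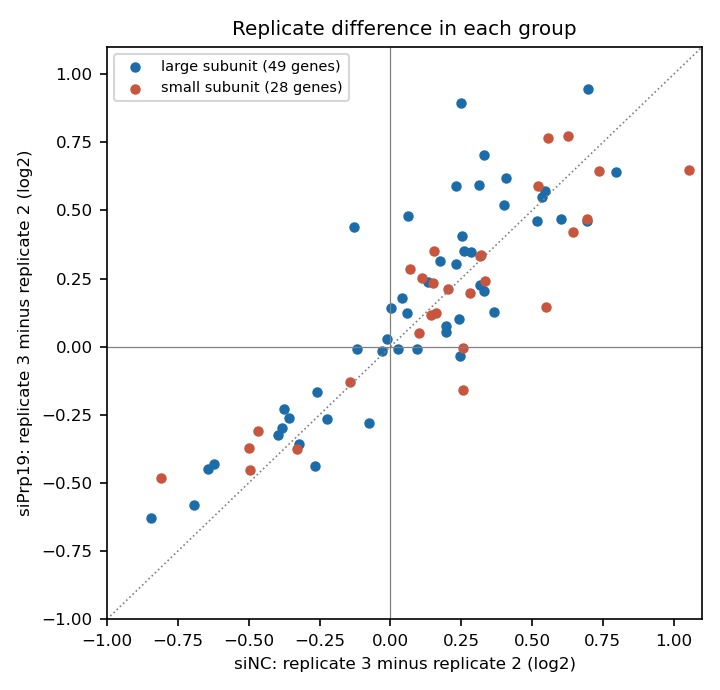
Log2 difference of FPKM + 0.1 between replicate 3 and replicate 2 with siNC (horizontal axis) and with siPrp19 (vertical axis) for 49 large subunit genes (blue) and 28 small subunit genes (red), with a dotted line of equal values. Of the 77 points 70 lie in the quadrants where both groups have the same sign.

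The knockdown question was whether these genes changed between siPrp19 and siNC. None of the 77 passed limma's test with Benjamini-Hochberg adjustment at an FDR under 0.05 (0% of all tested genes were called) and none had an unadjusted p under 0.05, against 0.608% of all tested genes higher and 0.947% lower. PRPF19 itself, with a log2 change of -1.04, did not pass at that FDR either, so this fit could miss a change of that size. The log2 changes of the 77 genes ran from -0.25 to 0.29, with medians of -0.02 in the large and 0.03 in the small subunit, and the median size of change was 0.055, against 0.103 over all tested genes. Their median standard error was also smaller, 0.162 against 0.213. Whether they changed less than other genes of like level was not tested. Leaving out single samples moved the median changes across 0, from -0.07 to 0.04 for the large subunit (lowest without siPrp19 replicate 3, highest without siPrp19 replicate 1) and from -0.09 to 0.07 for the small (lowest without siPrp19 replicate 3, highest without siNC replicate 3). Without replicate 3 of both groups they were -0.04 and -0.0028, and again 0 genes of the 77 passed. All 3 same-numbered pairs were higher with siPrp19 in 12 genes (19.2% of all tested genes) and lower in 9 (21.3%), that is 15.6% and 11.7% of the 77. The groups did not overlap in 1 gene, MRPL58, which was lower with siPrp19 (2.84% of all tested genes), and in none that was higher (2.77%).

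Samples with the same number deviated together, so the replicate number was also fitted as a block. With the replicate block the standard error of the knockdown change had a median of 0.061 in place of 0.162 on the log2 scale. Over all tested genes it was 0.081 in place of 0.213. Still no gene of the 77 passed at an FDR under 0.05, and 8 had an unadjusted p under 0.05: MRPL24, MRPS35, MRPL10 and MRPL4 were higher (5.19%, against 6.89% of all tested genes) and MRPL58, MRPL12, MRPS30 and MRPS28 lower (5.19%, against 8.77%). PRPF19 did not pass in this fit either (limma adjusted p = 0.19). Blocked 95% intervals lay within a 1.5-fold change either way for 76 of the 77 genes, the exception being MRPL53, against 77.3% of all tested genes. Without the block the intervals did so for 59 of the 77 genes (76.6%), against 43.8% of all tested genes. With the replicate block and limma voom on recovered reads, 2 of 76 genes were higher at an FDR under 0.05, MRPL24 (adjusted p = 0.0034) and MRPL10 (adjusted p = 0.047), and none was lower, against 2.65% of all genes so tested higher and 4.4% lower. With the block and only genes of at least 5 FPKM, MRPL24 alone passed among 70 (adjusted p = 0.048), against 0.43% higher and 1.14% lower. PRPF19 passed in both of these fits (limma adjusted p = 1.05e-11 with voom and 0.018 at 5 FPKM or more).

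MRPL24 was higher with siPrp19 in each pair, with log2 changes of 0.33, 0.26 and 0.28 in pairs 1, 2 and 3. Its groups overlapped, because replicate 2 was low in both, and the mean change was 0.29 ± 0.20 (SE) without the block (limma adjusted p = 1.00) and ± 0.04 with it (adjusted p = 0.19). For MRPL10 the pairs differed by 0.25, 0.12 and 0.24. MRPL4, the homolog of bacterial L4, which lines the exit tunnel, was at 9.52, 9.22 and 11.1 FPKM with siNC and 11.4, 10.2 and 13.1 FPKM with siPrp19, a change of 0.22 with a blocked 95% interval of 0.08 to 0.35. MRPL15, the homolog of bacterial L15, was higher by 0.11 on average in 3 of 3 pairs. In the small subunit MRPS35 was at 33.3, 37.4 and 29.7 FPKM with siNC and 37.0, 42.3 and 32.6 FPKM with siPrp19, with pairs of 0.15, 0.18 and 0.13. MRPS18B, MRPS34 and MRPS26 were higher in 3 of 3 pairs by 0.07, 0.07 and 0.05.

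MRPL58, a peptidyl-tRNA hydrolase that became part of the large subunit and frees stalled nascent chains, was at 20.6, 19.9 and 22.9 FPKM with siNC and 16.8, 19.2 and 19.9 FPKM with siPrp19. Every siPrp19 sample lay below every siNC sample, the highest siPrp19 sample being close to the lowest siNC sample, and the change was -0.18 ± 0.12 (SE, limma adjusted p = 1.00; blocked 95% interval -0.35 to -0.02, adjusted p = 0.29). MRPL12, the stalk protein that recruits translation factors and also binds the mitochondrial RNA polymerase, was at 14.8, 13.98 and 16.4 FPKM with siNC and 12.5, 10.3 and 15.5 FPKM with siPrp19. Its samples overlapped between groups, and its change of -0.25 had a blocked 95% interval of -0.46 to -0.04 (adjusted p = 0.27). The anchor MRPL10 and the stalk protein MRPL12 thus differed in sign, though neither passed the adjusted test in this fit. MRPL44, which has a ribonuclease III-like fold, and MRPL35 were lower in 3 of 3 pairs, with mean changes of -0.14 and -0.11.

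In the small subunit MRPS28 had the largest mean change downwards, -0.25, with pairs of -0.18, -0.36 and -0.22 and a blocked 95% interval of -0.43 to -0.08 (adjusted p = 0.23). MRPS30, found in the large subunit in structures, was at 12.5, 13.8 and 9.72 FPKM with siNC and 11.2, 12.5 and 9.09 FPKM with siPrp19, with pairs of -0.16, -0.14 and -0.10. MRPS12, the homolog of bacterial S12 at the decoding centre, had pairs of -0.01, -0.14 and -0.12. For each of these 3 genes the groups overlapped, and MRPS28 ran from 3.89 to 6.72 FPKM within the siPrp19 group alone.

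**Figure D5:**
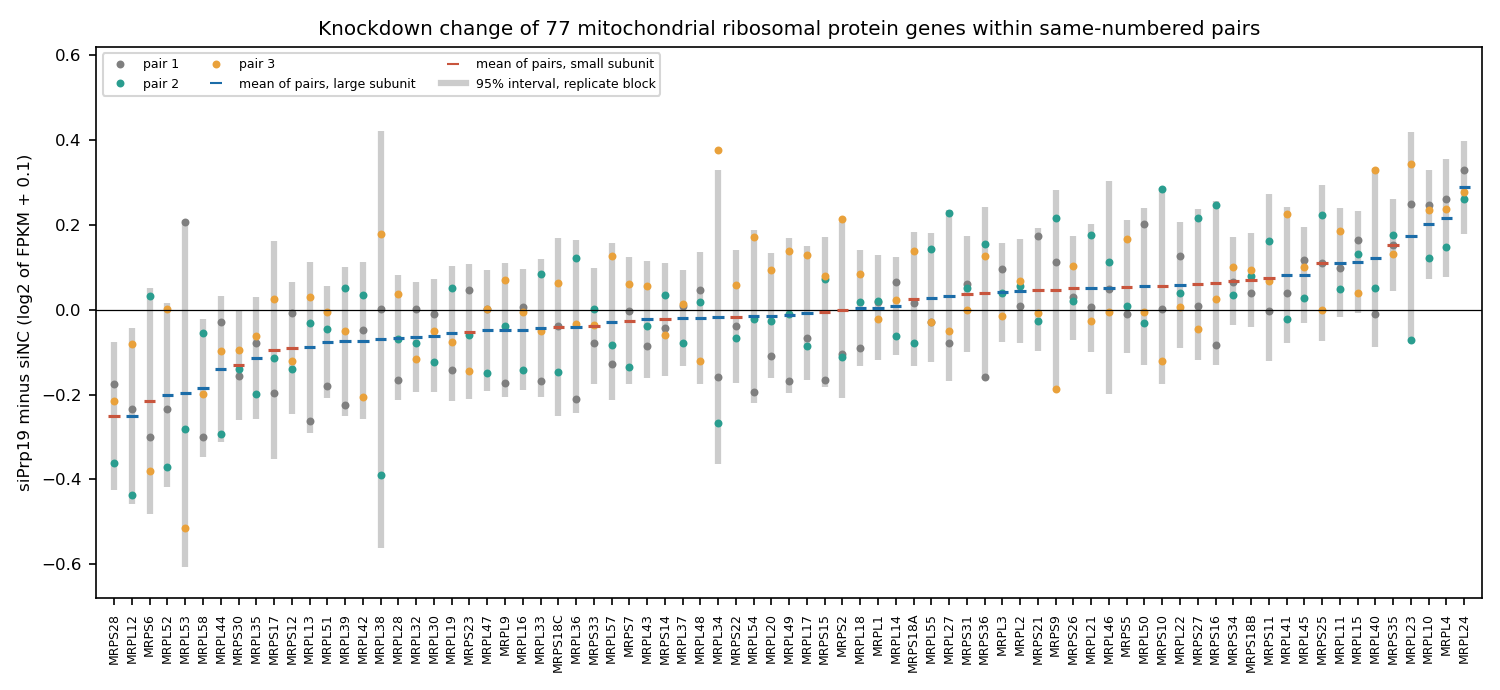
Log2 change of FPKM + 0.1, siPrp19 minus siNC, for the 77 genes in the order of their mean change; dots are the 3 same-numbered pairs, dashes the mean (blue large, red small subunit) and grey bars the 95% interval of the fit with the replicate block. The means run from -0.25 (MRPS28) to 0.29 (MRPL24), and most bars include 0.

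Other genes of mitochondrial translation were read from the same fits. Of 5 mitoribosomal proteins with other symbols, 16 translation factors and 26 genes of mitoribosome assembly and rRNA modification, all were tested and none passed the knockdown test without the block at an FDR under 0.05 or at an unadjusted p under 0.05. With the replicate block none passed at an FDR under 0.05 either, and 2 had an unadjusted p under 0.05, CHCHD1 lower and TUFM higher, where 8.77% of all tested genes were lower and 6.89% higher. The median knockdown changes of the 3 lists were 0.02, -0.06 and 0.04. CHCHD1, a small subunit protein, had the most negative change of its list, at 17.8, 19.6 and 24.3 FPKM with siNC and 15.3, 16.2 and 20.8 FPKM with siPrp19 (-0.24; adjusted p = 1.00 without and 0.20 with the replicate block), and DAP3, the GTPase of the small subunit, the most positive (0.07). Among the factors MTIF3, an initiation factor, was at -0.18 and TUFM, the elongation factor that brings aminoacyl-tRNA to the ribosome, at 0.13. TUFM was at 79.0, 79.3 and 80.2 FPKM with siNC and 84.8, 85.2 and 90.4 FPKM with siPrp19. All siPrp19 samples of TUFM lay above all siNC samples (adjusted p = 1.00 without the block and 0.27 with it). MTG1, a GTPase of assembly, was at -0.23 and MRM3, a methyltransferase of the large rRNA, at 0.20.

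Between replicate numbers 2 of 5, 7 of 16 and 13 of 26 genes of these lists passed the F test at an FDR under 0.05, that is 40.0%, 43.8% and 50%, against 49.6% of all tested genes. Without single samples the counts fell to 1 to 2 (1 without any sample but siNC replicate 3), 3 to 6 (3 without siNC replicate 2 or siPrp19 replicate 1, and 4 without siNC replicate 3, siPrp19 replicate 2 or siPrp19 replicate 3) and 5 to 11 (5 without siNC replicate 3, 6 without siPrp19 replicate 3 and 7 without siPrp19 replicate 2). CHCHD1 and DAP3 were the 2 of the first list, and both were higher in replicate 3 than in replicate 2, by 0.33 and 0.25. The 5 lowest adjusted p values among the factors were those of GFM1, an elongation factor that moves the ribosome along (3.40, 3.19 and 5.51 FPKM with siNC, 3.20, 3.16 and 5.09 FPKM with siPrp19), TACO1, GUF1, SLIRP and LRPPRC. GFM1, TACO1, GUF1 and SLIRP were higher in replicate 3 than in replicate 2, by 0.72, 0.47, 0.66 and 0.52, and LRPPRC, the partner of SLIRP in keeping mitochondrial mRNAs stable, was lower (-0.28). Of the assembly genes MPV17L2, RBFA, MRM1 and DDX28 were higher in replicate 3 than in replicate 2, by 1.12, 0.78, 1.27 and 0.96, and TFB1M, which dimethylates the small rRNA, was lower (-0.24). MRM1, a methyltransferase of the large rRNA, was low in replicate 2 only: 4.32, 2.20 and 4.74 FPKM with siNC and 5.97, 1.97 and 5.62 FPKM with siPrp19. RBFA was likewise low in replicate 2 only: 3.41, 1.75 and 3.10 FPKM with siNC and 3.70, 1.77 and 3.09 FPKM with siPrp19.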

How the data were processed

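The authors deposited FPKM values per Ensembl gene from RNA-seq of SK-N-BE(2), in 6 tables with 1 sample each. The submitters' processing notes name HISAT2 2.0.5, featureCounts 1.5.0-p3 and the genome build hg38. The annotation release is not given in the sources used here. The labels gave each sample its group and number. SK-N-AS cells and the other assays of the study were not analysed here.

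Symbols, exon lengths and exon overlaps were taken from GENCODE 29, which held 58039 of the 58302 identifiers. FPKM times exon length gave whole reads, within 0.02 of a read, for 95.8% of the genes above 0 and for 76 of the 77 members (all but MRPL28), with 51 to 3325 reads per member and sample. The total that the FPKM values were divided by, read from the worth of 1 read, was 0.924 to 1.03 of the recovered reads on genes, and median-of-ratios factors of the FPKM values were 1.01 in all samples, so the deposited values were already scaled between samples by other than the plain read total.

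All genes averaging 1 FPKM or more were fitted together in limma 3.58.1 (R 4.3.3) on log2(FPKM + 0.1), using eBayes with an expression trend and Benjamini-Hochberg adjustment over the whole table. Fold changes on this scale understate changes of low genes. The knockdown fit had no block, since the study's methods name none. Replicate numbers were compared with a term for the group. As a check of pairing, the deviations from the group means correlated between same-numbered samples with r of 0.38, 0.57 and 0.64 (mean 0.53 over 3 pairs), the numbers being those of the labels. The scripts were tested on simulated data. Alternatives were a pseudocount of 1, no filter or at least 5 FPKM, median-of-ratios, TPM and quantile scaling, eBayes without trend, limma voom on recovered reads, a replicate block and leaving out samples. Leaving out replicate 3 of both groups was chosen after seeing the data.

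The members and the gene lists were chosen with earlier results of these data known. Named members are, per subunit, the 3 highest and 3 lowest levels, the 4 largest mean changes each way among genes with 1 sign in 3 of 3 pairs, the 4 largest and 2 smallest F statistics, the genes nearest to the threshold, the S18 paralogs, MRPL12, MRPL58, MRPS30 and MRPS36. Of the other lists, the extremes of the knockdown change and up to 5 genes with the lowest adjusted p under 0.05 are named. MRPL45, CCDC142 and other overlapping genes were named for their overlap or pseudogene.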

Additional observations from a re-analysis of the deposited data

How the results depend on the processing

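The knockdown calls depended on the fit. Over all tested genes 0 passed at an FDR under 0.05, 1 with robust eBayes without trend, 959 with the replicate block and voom and 124 with the replicate block and at least 5 FPKM. Over the members these were 0, 0, 2 and 1. Median-of-ratios scaling left the FPKM values as they were up to 1 common factor. The pairing by replicate number alone (replicate block) changed no call. The median knockdown change ran from -0.075 to 0.036 in the large and from -0.087 to 0.067 in the small subunit without single samples, and was -0.038 and -0.0028 without replicate 3 of both groups, with or without the replicate block.

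Genes that differed between replicate numbers (7175 of all tested genes) were 4214 with no filter, 5662 with robust eBayes and 4123 to 5563 without single samples. For the 77 members the count of 52 became 23 with no filter, 26 with robust eBayes and 22 to 37 without single samples. With robust eBayes the share of the members lay below that of all tested genes. With no filter the 4214 calls were among 37676 genes above 0, a set that adds genes under 1 FPKM. There the share of the members lay above that of all genes. With TPM, members higher in replicate 3 than in replicate 1 fell from 27 to 19, while the lower ones rose from 4 to 11. Members higher in replicate 2 than in replicate 1 (10) were 0 with no filter or robust eBayes, 2 with TPM, 2 with quantile scaling, 5 with no term for the group, 16 with voom and 0 to 11 without single samples. The 2 lower ones were 0 with no filter, robust eBayes or no term for the group, 4 at 5 FPKM or more, 8 with TPM, 6 with quantile scaling and 0 to 2 without single samples. Members higher in replicate 3 than in replicate 1 (27) were 8 with no filter, 10 with robust eBayes and 1 to 18 without single samples, and the 4 lower ones 11 with TPM, 8 with voom, 2 with no term for the group and 0 to 4 without single samples. Against replicate 2, the 31 higher ones were 20 with no filter and 14 to 27 without single samples, and the 17 lower ones 7 to 15. Other lists gave 1 to 2, 3 to 6 and 5 to 11 F test calls without single samples. The mean ratio of large to small subunit was 1.32 by medians and 2.19 by sums. The causes were not tested beyond what each alternative changes by construction (samples or genes left out).

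Of values of single genes under alternatives, 1016 kept their direction and side of the threshold, 79 lost and 9 gained a call, and none turned. The lowest members, such as MRPL53 on 51 to 99 reads, limit what could be seen, and 3 samples a group leave 2 residual degrees of freedom with the block.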
